A study of Homo sapiens with 16 samples.

Results

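The 9 genes described here are TGIF1, TGIF2, SMAD3, SMAD6, SMAD7, SKI, SKIL, SNAI1 and SNAI2, chosen by name as brakes of transforming growth factor beta (TGF-beta) signalling together with the signal carrier SMAD3 and a pair of SNAI transcription factors. They are 9 of the 28374 gene rows in the count table, and all 9 were among the 18575 genes that passed the filter on low counts. Total RNA came from CCD-1070Sk, a human skin fibroblast line, and in every group the cells had first been starved of serum. The TPA+H89 group (n = 2) had 30 min with 10 µM H89, an inhibitor of the kinases MSK1, MSK2 and protein kinase A, and then 1 h with 100 nM of the phorbol ester TPA, an activator of protein kinase C. The TPA group (n = 2) had TPA alone for 1 h. The EGF+H89 group (n = 2) had the same H89 pretreatment and then 30 ng/ml epidermal growth factor (EGF) for 1 h, and the EGF group (n = 3) had EGF alone. The H89 group (n = 3) had the pretreatment and is recorded at 0 h, so its time in H89 may be shorter than in the groups given both agents. The control group (n = 3 after 2 identical columns were counted as 1) was starved and untreated. It is also recorded at 0 h, so a mitogen and the added 1 h cannot be told apart in values against control or H89.

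TGF-beta binds serine/threonine kinase receptors that phosphorylate SMAD2 and SMAD3, which enter the nucleus with SMAD4 and act on target genes. SMAD6 and SMAD7 are inhibitory SMADs that act at the receptors, whereas SKI, SKIL (SnoN), TGIF1 and TGIF2 are corepressors that act on SMAD-bound chromatin. Several of these brakes are themselves target genes of the pathway, and in fibroblasts the pathway is known for driving matrix production. SNAI1 (Snail) and SNAI2 (Slug) are zinc finger repressors best known for silencing epithelial genes.

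The libraries held 7527026 to 130075914 counts, and a member had 40 to 22786 counts in a library. The libraries fell into 3 sets that the labels do not name. In 6 libraries, 1 of each group, the ribosomal genes RNR1 and RNR2 took 11.7% to 30.4% of counts, here called the RNR set. In 7 libraries, which also cover all 6 groups, these genes had 0 counts, here called the RNR-free set. The first EGF and the first control library had more genes at a count of 1 than at a count of 2 and form the remaining set. These 2 libraries and the second TPA library had the lowest median correlations with the others, at 0.865, 0.885 and 0.936. They are called the 3 libraries that stand apart below. The second TPA library was close to the next lowest, the first TPA+H89 library, at 0.942. All 10 fibroblast markers averaged at least 1 CPM (counts scaled to a common library size). The summed level of 6 keratinocyte markers was 6.83 to 44.9 CPM over the libraries, most of it KRT10 (6.28 to 44.4 CPM), while KRT5, KRT14 and KRT1 stayed at or below 0.313 CPM. The sum of 5 leukocyte markers was 10.98 to 76.8 CPM, most of it CD68 (9.44 to 76.2 CPM), while PTPRC stayed at or below 0.819 CPM. Sums of 5 endothelial and 5 melanocyte markers were at most 7.41 and 7.42 CPM. The part of these transcripts in the results was not tested. The labels do not say whether replicates were grown as separate cultures. The p-values therefore reflect how far these samples vary, and that variation may be technical. In such bulk samples, fewer cells of a type and less RNA per cell cannot be told apart. Levels below are CPM on TMM-scaled library sizes (edgeR's trimmed-mean scaling), not divided by gene length, so they are compared between groups and not between genes.

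Promoter sequence is shown for 4 windows that hold a site for CREB, AP-1, EGR or SMAD factors, since CREB is a substrate of the kinases that H89 inhibits and AP-1 and EGR factors are induced early by mitogens. RefSeq windows (GRCh38.p14, 250 bases before to 50 bases after a start, both strands searched) were found for 6 members, 19 windows in all. Capitals mark matches to the motifs searched. The TGIF1 window lies at chr18:3448181-3448480, plus strand, 1 of 7 windows of that gene. Its capitals are the EGR site GCGNGGGCG and the AP-1 site TGANTCA. The SKIL window lies at chr3:170357465-170357764, plus strand, and its capitals are an EGR site, read on the other strand, and the cAMP response element (CRE) TGACGTCA. The TGIF2 window lies at chr20:36573347-36573646, plus strand, with a CRE. The SMAD6 window lies at chr15:66701986-66702285, plus strand, with the palindromic SMAD element GTCTAGAC. The AP-1 site was found in 3 windows of TGIF1 and 1 of SMAD3.
TGIF1: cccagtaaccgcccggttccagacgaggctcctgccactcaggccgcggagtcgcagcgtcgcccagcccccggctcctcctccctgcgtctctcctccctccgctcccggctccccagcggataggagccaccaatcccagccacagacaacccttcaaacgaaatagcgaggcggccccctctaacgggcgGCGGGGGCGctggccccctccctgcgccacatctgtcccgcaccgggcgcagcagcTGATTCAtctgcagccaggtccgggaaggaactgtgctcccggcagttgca
SKIL: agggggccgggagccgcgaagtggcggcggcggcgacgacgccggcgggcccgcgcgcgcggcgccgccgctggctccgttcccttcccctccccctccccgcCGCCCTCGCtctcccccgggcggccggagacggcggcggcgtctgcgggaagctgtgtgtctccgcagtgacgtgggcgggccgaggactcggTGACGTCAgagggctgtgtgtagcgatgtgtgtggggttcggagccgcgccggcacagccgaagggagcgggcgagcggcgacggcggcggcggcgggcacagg
TGIF2: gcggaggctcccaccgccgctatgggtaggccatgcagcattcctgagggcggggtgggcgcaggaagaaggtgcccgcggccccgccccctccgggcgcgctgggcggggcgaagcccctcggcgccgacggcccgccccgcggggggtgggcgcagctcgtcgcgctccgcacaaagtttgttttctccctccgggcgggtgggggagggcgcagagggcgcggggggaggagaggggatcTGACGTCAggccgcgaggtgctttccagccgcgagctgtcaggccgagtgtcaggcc
SMAD6: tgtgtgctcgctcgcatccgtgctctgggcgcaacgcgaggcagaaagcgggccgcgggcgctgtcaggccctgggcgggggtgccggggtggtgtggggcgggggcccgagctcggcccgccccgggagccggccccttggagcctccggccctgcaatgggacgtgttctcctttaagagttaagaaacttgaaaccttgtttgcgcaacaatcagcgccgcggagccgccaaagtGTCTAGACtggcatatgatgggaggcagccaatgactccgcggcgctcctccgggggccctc
Among 35116 RefSeq windows of this length, 1.85% held the CRE, 7.71% the AP-1 site, 0.202% the SMAD element and 9.43% the EGR site. The E-box CAGGTG, which SNAI factors bind, was found in 1 window each of SMAD3 and SMAD7, against 20.6% of all windows. The CArG box of SRF was found in 0 of the 19 windows and in 1.29% of all windows. The searched motifs do not overlap in the printed windows, and a match describes letters only.

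TGIF1, which encodes a homeodomain corepressor of SMAD2 and SMAD3, was the member that passed the test in the most comparisons. It had 214 and 206 CPM in TPA+H89 cells, 135 and 188 CPM in TPA cells, 129 and 159 CPM in EGF+H89 cells, 88.7, 80.8 and 100.2 CPM in EGF cells, 42.5, 38.9 and 37.3 CPM in H89 cells, and 60.6, 38.4 and 37.7 CPM in control cells. Every mitogen-treated library was above every H89 and control library. In order, the group means were 210.4 ± 5.80 CPM in TPA+H89, 161 ± 38.0 in TPA, 144 ± 20.9 in EGF+H89, 89.9 ± 9.75 in EGF, 45.6 ± 13.04 in control and 39.6 ± 2.66 in H89 (SD). The ranges of TPA and EGF+H89 overlapped, as did those of control and H89, and the other neighbours in this order did not.

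TGIF1 rose in TPA cells relative to control, with a log2 fold change of 1.82 ± 0.26 (SE), which is 3.54-fold (edgeR quasi-likelihood test, adjusted p = 0.00962). In this comparison 0.415% of all tested genes passed. Without the second TPA library the value was 1.57 (adjusted p = 0.111), without the second control library 1.68 (0.120) and without the third 1.71 (0.0633). With only the compared groups in the model the call was also lost (0.528). With EGF the value was 0.98 ± 0.24, which did not pass (adjusted p = 0.503), and 0.0269% of genes passed. Within the sets, the log2 difference of TPA from control was 1.81 in the RNR set and 2.32 in the RNR-free set. For EGF it was 1.07, 1.41 and, in the remaining set, 0.55. Each of these within-set values compares single libraries, apart from the pair of H89 libraries in the RNR-free set, and has no error. Within a set, the TPA and control libraries can come from separate runs of sample names, and so can the TPA+H89 and H89 libraries.

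With H89 present, TGIF1 rose under either mitogen relative to H89 alone. The log2 fold change was 2.41 ± 0.26 for TPA+H89 (adjusted p = 0.00500, with 0.0969% of genes passing) and 1.86 ± 0.26 for EGF+H89 (adjusted p = 0.0295, with 0.0269% passing). The EGF+H89 call was lost when any of its 5 libraries was left out, with values of 1.70 to 2.01. The TPA+H89 call was lost without any 1 of the H89 libraries, with values of 2.37 to 2.46 over all libraries left out in turn.

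TGIF2, the relative of TGIF1 with the same kind of repressor activity, had 15.1 and 14.1 CPM in TPA+H89 cells, 16.8 and 4.53 in TPA cells, 11.3 and 10.1 in EGF+H89 cells, 19.5, 9.90 and 12.5 in EGF cells, 11.5, 11.4 and 19.1 in H89 cells, and 22.8, 12.9 and 12.8 in control cells. All neighbouring groups overlapped. Its log2 fold change was -0.60 ± 0.50 for TPA (adjusted p = 0.583) and -0.21 ± 0.44 for EGF. The second TPA library was the lowest of all, and within the sets the TPA difference was 0.38 in the RNR set and -1.49 in the RNR-free set. TGIF2 shares exons with a read-through transcript, TGIF2-C20orf24, which was listed at 0 in every library.

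The count ratio of TGIF1 to TGIF2 within a library, which library size does not touch, was 14.2 and 14.7 in TPA+H89 cells, 8.002 and 41.6 in TPA cells, 11.4 and 15.8 in EGF+H89 cells, and 4.54, 8.17 and 8.01 in EGF cells. In H89 cells it was 3.68, 3.43 and 1.95, and in control cells 2.66, 2.98 and 2.94. Each mitogen-treated library had a higher ratio than every H89 or control library. The ratio shows unequal change of the pair, not that either stayed constant.

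**Figure D1:**
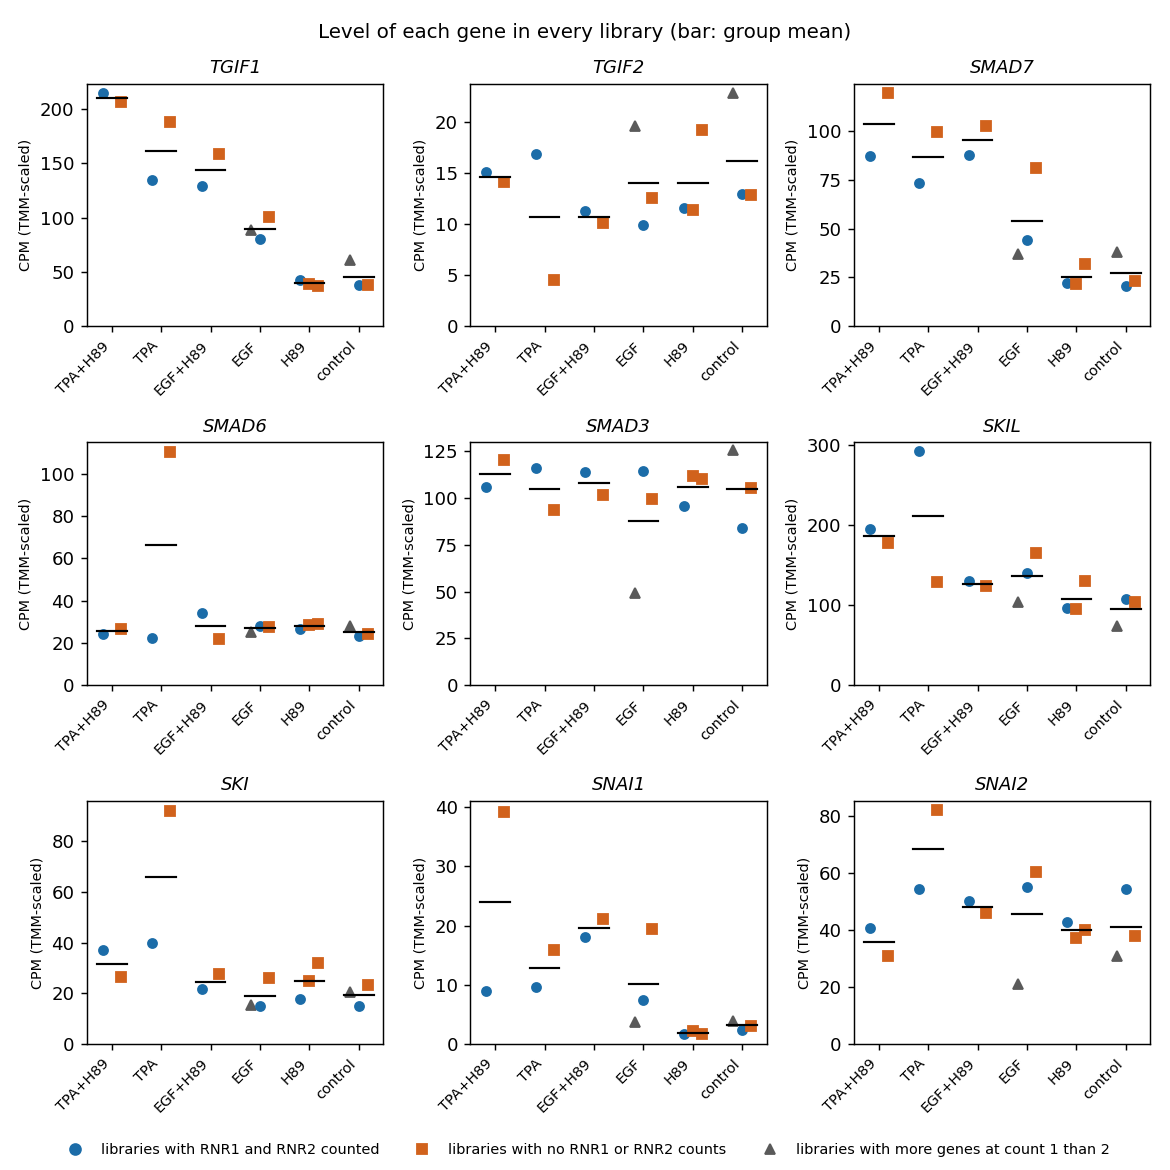
TMM-scaled CPM of the 9 genes in each of the 15 libraries, with groups along the x axis, marker shape for the library set and a bar at each group mean. TGIF1, SMAD7 and SNAI1 share a profile with high mitogen-treated groups, while the second TPA library stands out for SMAD6, at 110.5 CPM.

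SMAD7, the inhibitory SMAD that recruits ubiquitin ligases to the receptor, had 87.3 and 119 CPM in TPA+H89 cells, 73.5 and 99.4 in TPA cells, 87.8 and 102 in EGF+H89 cells, 36.9, 44.4 and 81.1 in EGF cells, 21.97, 21.6 and 32.1 in H89 cells, and 37.9, 20.5 and 23.2 in control cells. The TPA+H89, TPA and EGF+H89 libraries all lay above every H89 and control library. The lowest EGF library, the first, lay inside the control range. Against control, the log2 fold change was 1.67 ± 0.36 for TPA (adjusted p = 0.0858) and 0.99 ± 0.33 for EGF (adjusted p above 0.99). Neither passed over all genes. Against H89 it was 2.03 ± 0.37 for TPA+H89 (adjusted p = 0.0754) and 1.91 ± 0.37 for EGF+H89 (0.244).

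With a term for the library set, SMAD7 passed in 3 comparisons, with 1.69 ± 0.34 for TPA against control (adjusted p = 0.0203), 2.09 ± 0.31 for TPA+H89 against H89 (0.00272) and 1.99 ± 0.31 for EGF+H89 against H89 (0.00749). In that fit 1.25%, 0.431% and 0.269% of genes passed. Within the RNR and RNR-free sets the SMAD7 difference was 1.84 and 2.10 for TPA against control, and 1.11 and 1.80 for EGF against control. In the remaining set the EGF difference was -0.04.

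SMAD6, the inhibitory SMAD linked mainly to bone morphogenetic protein signalling, had 24.4 and 26.5 CPM in TPA+H89 cells, 22.3 and 110.5 in TPA cells, 34.1 and 21.9 in EGF+H89 cells, 25.02, 28.2 and 27.5 in EGF cells, 26.4, 28.5 and 28.8 in H89 cells, and 27.9, 23.4 and 24.4 in control cells. The second TPA library alone stood out. The log2 fold change for TPA was 1.40 ± 0.45 (adjusted p = 0.250), and without that library -0.17. For EGF it was 0.09 ± 0.41. The count ratio of SMAD7 to SMAD6 was 3.58 and 4.49 in TPA+H89 cells, 3.30 and 0.899 in TPA cells, 2.58 and 4.68 in EGF+H89 cells, 1.47, 1.58 and 2.95 in EGF cells, 0.831, 0.757 and 1.11 in H89 cells, and 1.36, 0.877 and 0.950 in control cells.

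SMAD3, the signal carrier, differed little between groups. It had 106 and 120.1 CPM in TPA+H89 cells, 116 and 93.6 in TPA cells, 114 and 101 in EGF+H89 cells, 49.4, 114 and 99.5 in EGF cells, 95.6, 112 and 110.1 in H89 cells, and 126, 84.2 and 105 in control cells. All neighbouring groups overlapped, and the low value is the first EGF library. The log2 fold change was -0.00 ± 0.32 for TPA and -0.26 ± 0.29 for EGF. With the 3 libraries that stand apart left out these became 0.29 and 0.18.

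**Figure D2:**
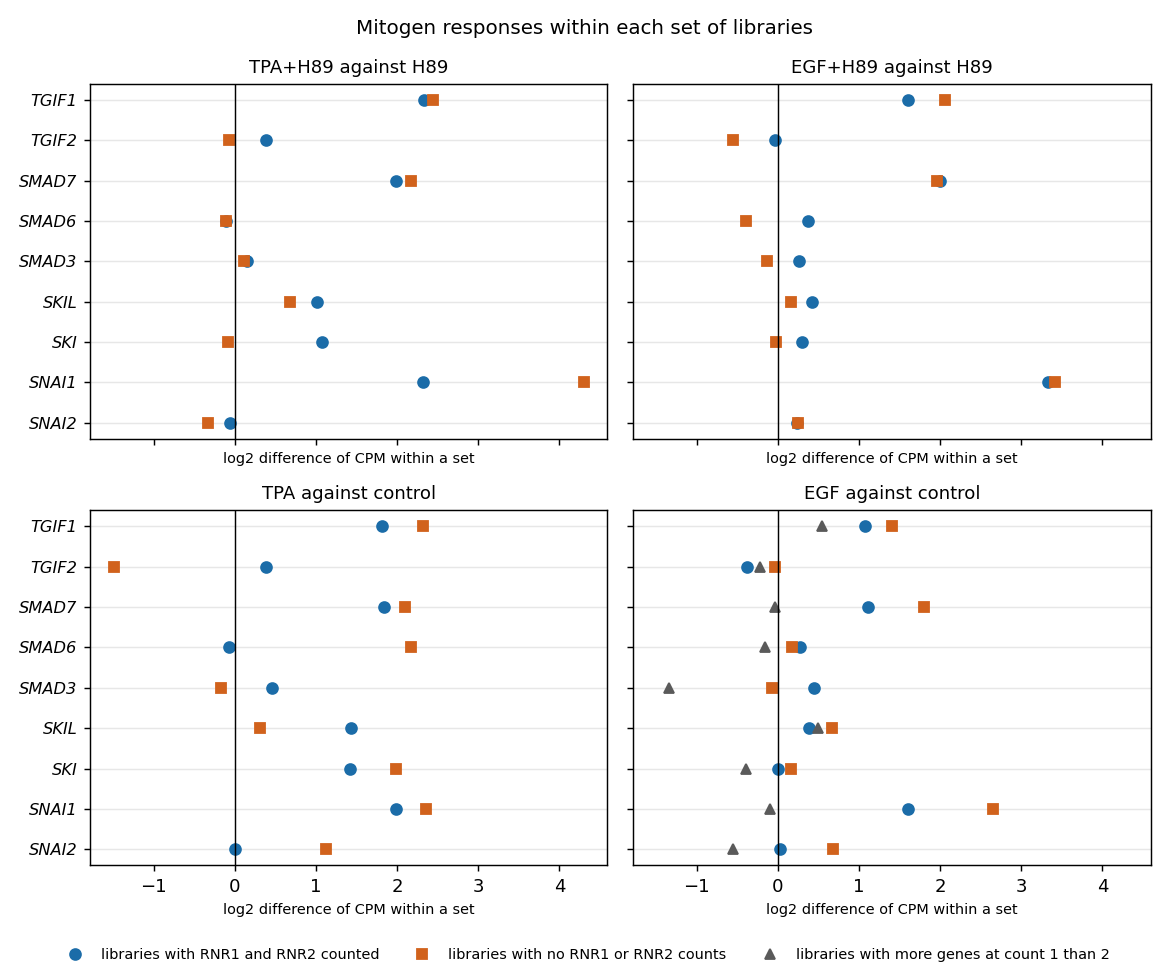
Log2 difference of CPM within each set of libraries for the 9 genes, for mitogen against its baseline, with marker shape for the set. TGIF1 is positive in every set, from 0.55 for EGF in the set of the first EGF and control libraries to 2.44 for TPA+H89 against H89 in the RNR-free set.

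SKI, a corepressor that blocks SMAD complexes, had 37.0 and 26.4 CPM in TPA+H89 cells, 39.8 and 91.9 in TPA cells, 21.6 and 27.5 in EGF+H89 cells, 15.5, 14.9 and 25.9 in EGF cells, 17.5, 24.8 and 31.8 in H89 cells, and 20.4, 14.9 and 23.1 in control cells. Both TPA libraries lay above all others. The log2 fold change was 1.76 ± 0.39 for TPA (adjusted p = 0.0862) and -0.05 ± 0.35 for EGF. Without the second TPA library the TPA value was 1.03 (adjusted p = 0.647). With the set term it was 1.66 ± 0.32 and passed (adjusted p = 0.0165).

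SKIL, the relative of SKI and itself a known TGF-beta target, had 194 and 178 CPM in TPA+H89 cells, 292 and 129 in TPA cells, 129 and 124 in EGF+H89 cells, 103, 141 and 164 in EGF cells, 96.7, 95.2 and 129.6 in H89 cells, and 73.5, 108 and 104 in control cells. Both TPA libraries lay above every control library. The log2 fold change was 1.15 ± 0.34 for TPA (adjusted p = 0.210) and 0.52 ± 0.30 for EGF, and neither passed edgeR's test. For TPA, SKIL passed with DESeq2 (1.13, adjusted p = 0.0354), which called 527 of 18575 genes in this comparison. The value was 1.46 without the 3 libraries that stand apart, where only the first TPA library remains. It was 0.42 without the first TPA library. The TPA difference was 1.44 in the RNR set and 0.31 in the RNR-free set. Against H89, the TPA+H89 value was 0.80 ± 0.34 (adjusted p above 0.99).

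The count ratio of SKIL to SKI was 5.26 and 6.74 in TPA+H89 cells, 7.33 and 1.40 in TPA cells, 5.998 and 4.5 in EGF+H89 cells, 6.67, 9.41 and 6.34 in EGF cells, 5.51, 3.84 and 4.08 in H89 cells, and 3.60, 7.22 and 4.49 in control cells. The second TPA library had the lowest ratio, and the other groups overlapped widely.

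**Figure D3:**
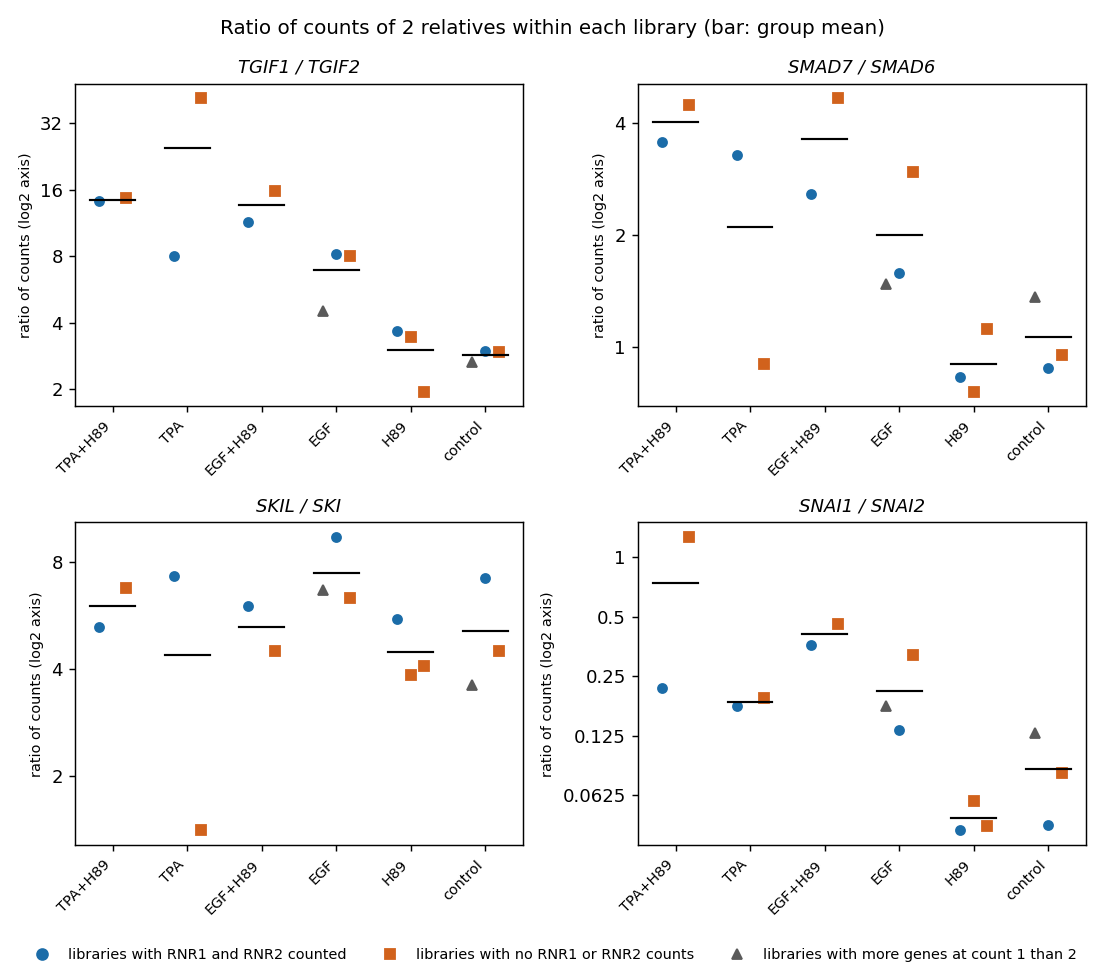
Count ratios within each library for 4 pairs of relatives on a log2 axis, by group, with a bar at the group mean. The TGIF1 to TGIF2 ratio is 4.54 or more in every mitogen-treated library and 3.68 or less in every H89 and control library.

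SNAI1 was the member with the lowest count in a library, 40. It had 8.93 and 39.1 CPM in TPA+H89 cells, 9.60 and 15.9 in TPA cells, 18.1 and 21.1 in EGF+H89 cells, 3.68, 7.38 and 19.5 in EGF cells, 1.76, 2.17 and 1.74 in H89 cells, and 3.95, 2.40 and 3.06 in control cells. The first EGF library lay inside the control range, and all other mitogen-treated libraries lay above every H89 and control library. Against control the log2 fold change was 2.02 ± 0.63 for TPA (adjusted p = 0.242) and 1.69 ± 0.58 for EGF (above 0.99), and neither passed. Against H89 it was 3.68 ± 0.66 for TPA+H89 (adjusted p = 0.0743) and 3.37 ± 0.65 for EGF+H89 (0.244). Without the second TPA+H89 library the TPA+H89 value was 2.23 (0.324), and without the third EGF library the EGF value was 0.81. With the set term both of the H89 comparisons passed, with 3.63 ± 0.50 (0.00126) and 3.54 ± 0.49 (0.00304). Within the RNR and RNR-free sets the TPA+H89 difference from H89 was 2.31 and 4.30 and the EGF+H89 difference 3.33 and 3.41. The EGF difference from control was 1.603, 2.65 and, in the remaining set, -0.10.

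SNAI2 had 40.8 and 30.8 CPM in TPA+H89 cells, 54.5 and 82.2 in TPA cells, 50.3 and 46.0 in EGF+H89 cells, 20.9, 55.2 and 60.5 in EGF cells, 42.6, 37.3 and 40.1 in H89 cells, and 30.8, 54.3 and 37.7 in control cells. The TPA libraries were above all control libraries by a narrow margin in the lower of them. The log2 fold change was 0.74 ± 0.38 for TPA (adjusted p = 0.419) and 0.15 ± 0.35 for EGF. The count ratio of SNAI1 to SNAI2 was 0.219 and 1.27 in TPA+H89 cells, 0.176 and 0.194 in TPA cells, 0.359 and 0.458 in EGF+H89 cells, 0.176, 0.134 and 0.321 in EGF cells, 0.0413, 0.0582 and 0.0433 in H89 cells, and 0.128, 0.0442 and 0.0811 in control cells. All mitogen-treated libraries had a higher ratio than all H89 and control libraries, the first control library by a narrow margin.

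H89 on its own was set against control, and none of the 9 genes passed (edgeR, 0% of all genes). Their log2 fold changes ran from -0.74 for SNAI1 to 0.34, with a median of -0.03 against -0.05 over all tested genes. At an unadjusted p below 0.05 there were 0 members and 608 genes, and DESeq2 called 0 members and 3 genes. SNAI1 had at most 2.17 CPM in H89 cells and at least 2.40 CPM in control cells, a narrow gap (edgeR adjusted p above 0.99). The share of all genes whose ranges part in this way was not counted, so nothing is drawn from it.

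H89 given before TPA was compared with TPA alone, and none of the 9 passed (0% of all genes). At an unadjusted p below 0.05 there were 3 members among 1300 genes. DESeq2 called 10 genes and no member, but gave SMAD6 and SKI no adjusted p. The 3 were SMAD6 at -1.38 ± 0.51, SKI at -1.06 ± 0.43 and SNAI2 at -0.93 ± 0.43, each with an adjusted p of 0.714. The other 6 ran from -0.18 to 0.93. The second TPA library is in the RNR-free set. In the RNR set the differences of these 3 were 0.13, -0.11 and -0.42, and in the RNR-free set -2.06, -1.80 and -1.41.

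H89 given before EGF was compared with EGF alone, and none passed (0% of all genes). At an unadjusted p below 0.05 there were 2 members among 310 genes, and DESeq2 called 0 members and 1 gene. TGIF1 was 0.68 ± 0.26 and SMAD7 0.81 ± 0.36, with adjusted p near 1, and the other 7 ran from -0.39 to 0.94. TGIF1 differed by 0.68 in the RNR set and 0.66 in the RNR-free set. SMAD7 differed by 0.98 and 0.34.

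**Figure D4:**
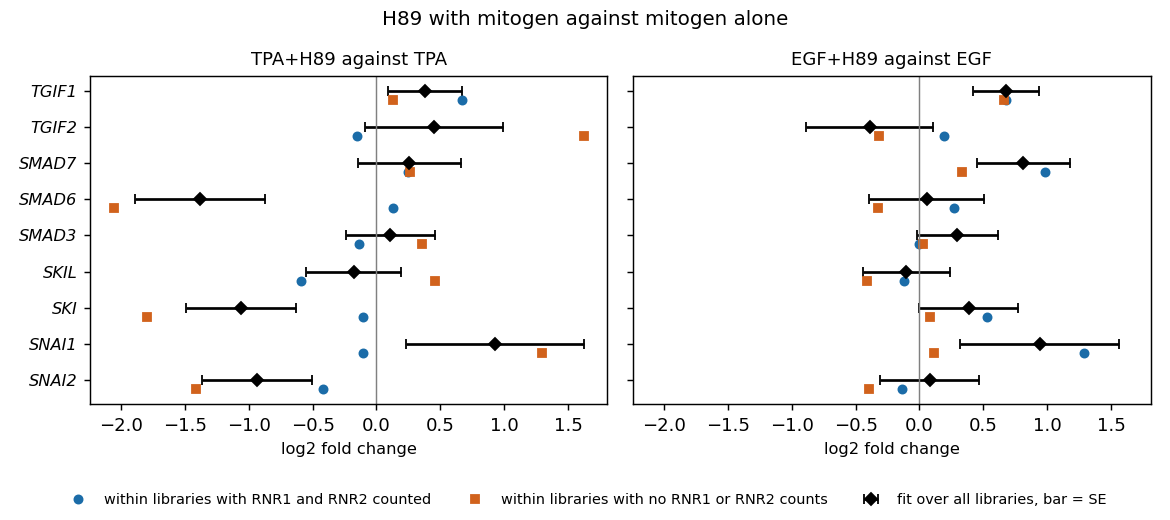
Log2 fold change of the 9 genes for H89 with a mitogen against the mitogen alone, as fitted over all libraries (diamond, bar for SE) and within sets. SMAD6 and SKI are at 0.13 and -0.11 in the RNR set under TPA and at -2.06 and -1.80 in the RNR-free set.

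The interaction of EGF with H89 gave no called gene (0%; 48 genes at an unadjusted p below 0.05, DESeq2 0), and TGIF1 was 0.88 ± 0.35 with an adjusted p of 1. The interaction of TPA with H89 also gave none (0%; 887 genes, DESeq2 0). SKI was -1.40 ± 0.56 and SMAD6 -1.53 ± 0.65 there (adjusted p = 0.900 for both), and the SMAD6 value was 0.042 without the second TPA library. Without the first TPA library it was -2.29. Each of these fits holds 1 TPA library, and SMAD6 had 22.3 CPM in the first and 110.5 CPM in the second.

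TPA was set against EGF, and none of the 9 passed (0% of all genes, with 2480 at an unadjusted p below 0.05). The lowest adjusted p was that of SKI, at 1.81 ± 0.39 (adjusted p = 0.256). TGIF1 was 0.84 ± 0.26 and SMAD6 1.31 ± 0.45. With the set term SKI passed at 1.73 ± 0.31 (adjusted p = 0.0254, 0.334% of genes passing), and DESeq2 called it among 294 genes. For EGF against control, the set term let 0.221% of genes pass and none of the 9.

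The members' median log2 fold change for TPA against control was 1.40, with 7 of 9 positive, against -0.02 over all tested genes. That median is the SMAD6 value, which was -0.17 without the second TPA library. The 9 genes were chosen with earlier results of these data known, so these medians are descriptions. For EGF it was 0.15 against 0.02, with 6 of 9 positive. Both comparisons share the control libraries.

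Across the 15 libraries, after set means were removed, TGIF1 and SMAD7 had a Pearson r of 0.965 in log2 CPM, SMAD7 and SNAI1 0.944, and TGIF1 and SNAI1 0.908. These points share treatment groups and library properties, and the values are descriptions. Among all genes averaging at least 1 CPM, those most like TGIF1 were HES1 (0.966), SMAD7 and GADD45B (0.963). Those most like SMAD7 were BHLHE40 (0.981) and HES1 (0.975), and for SNAI1 KLF10 (0.963) and BHLHE40 (0.949). SKIL was nearest to TIPARP (0.927), SKI to DCLK2 (0.960), SNAI2 to PHLDB1 (0.898), SMAD3 to BRPF3 (0.950), SMAD6 to HGS (0.976) and TGIF2 to MFAP3 (0.972). Without the second TPA library, which was left out after seeing the data, r was 0.760 for SMAD6 with HGS, 0.788 for SNAI2 with PHLDB1, 0.918 for SKI with DCLK2 and 0.912 for TGIF2 with MFAP3. SMAD6 and TGIF2 had an r of -0.804 with that library and -0.102 without it. TGIF1 with SMAD7 stayed at 0.965.

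Beyond the 9 genes, 86 genes of the pathway were listed by role, of which 85 were tested. For TPA against control 0.415% of all tested genes passed. Of the 85, 4 rose and 0 fell, all in the list of 18 TGF-beta target genes. These were JUNB, an AP-1 subunit (5.66 ± 0.87, adjusted p = 0.0147), ID3, an inhibitor of helix-loop-helix factors (4.82 ± 0.87, 0.0335), the repressor BHLHE40 (4.14 ± 0.61, 0.0119) and the cytokine IL11 (4.04 ± 0.60, 0.0123). JUNB had 790 and 8108 CPM in TPA cells, against 79.6, 48.6 and 136 CPM in control cells. ID3 had 89.8 and 776 CPM in TPA cells, against 7.75, 16.9 and 21.3 CPM in control cells. For both genes the higher value is the second TPA library. Values for list genes with libraries left out are not given. In this list 16 of 18 were positive with a median of 1.22 on the log2 scale, against -0.02 over all genes. The lists were chosen with earlier results of these data known, so list medians and signs are descriptions and test nothing. JUNB and ID3 are also known as early response genes to growth factors. With the set term 7 list genes rose, the same 4 with ID1, CDKN2B and SPHK1, and the ligand BMP4 fell (-1.32 ± 0.29, adjusted p = 0.0343). Calls over all genes also grew with that term, from 77 to 233, or 1.25% of genes. ID1 had 30.3 CPM in the first and 617 CPM in the second TPA library.

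Without the set term, the other lists had no called member under TPA. Among ligands and matrix binders (14 genes, median 0.21) TGFB1 was 1.92 ± 0.55 (adjusted p = 0.204) and TGFB3 -0.94 ± 0.34. Among receptors (13 genes, median -0.00) TGFBR1 was 0.86 ± 0.34 and ENG 1.45 ± 0.69. Among other SMADs and adaptors (7 genes, median 0.08) SMAD2 was 0.41 and SMAD1 -0.58. Among ubiquitin ligases, phosphatases and transporters (12 genes, median 0.23) PMEPA1 was 1.10 ± 0.41 and WWP1 0.51. Among cofactors (12 genes, median 0.28) HDAC2 was 0.44. Among SNAI relatives and known SNAI targets (11 tested, median -0.03) TWIST2 was 1.90 ± 0.57 (0.223) and TWIST1 1.01 ± 0.39.

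For EGF against control none of the 85 passed without the set term, and with it IL11 (1.90 ± 0.34, adjusted p = 0.0326) and BHLHE40 (2.32 ± 0.45, 0.0458) rose. Over all genes 0.0269% passed without the term and 0.221% with it. The target list had a median of 0.43 with 14 of 18 positive, and its lowest p-values were those of BHLHE40 (2.56 ± 0.55, adjusted p = 0.293) and IL11 (1.95 ± 0.53, 0.840). The other 6 lists had medians of -0.25 to -0.06. With H89 present, BHLHE40 rose in TPA+H89 cells against H89 (4.19 ± 0.62, adjusted p = 0.0257), alone among the 85, and no gene of the lists passed for EGF+H89 against H89. With the set term 5 rose in each of these 2 comparisons, among them ID1, ID3, JUNB and BHLHE40 in both. Over all genes the share passing grew with that term from 0.0969% to 0.431% for TPA+H89. For EGF+H89 it grew from 0.0269% to 0.269%. None of the 85 passed in either fit for H89 against control, for H89 with a mitogen against that mitogen or in the interactions. For TPA against EGF none passed without the set term and ID3 rose with it (2.96 ± 0.52, adjusted p = 0.0248). In this comparison 0% of all genes passed without the term and 0.334% with it. ID3 had 89.8 CPM in the first and 776 CPM in the second TPA library, against 15.2, 31.8 and 59.8 CPM in EGF cells.

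**Figure D5:**
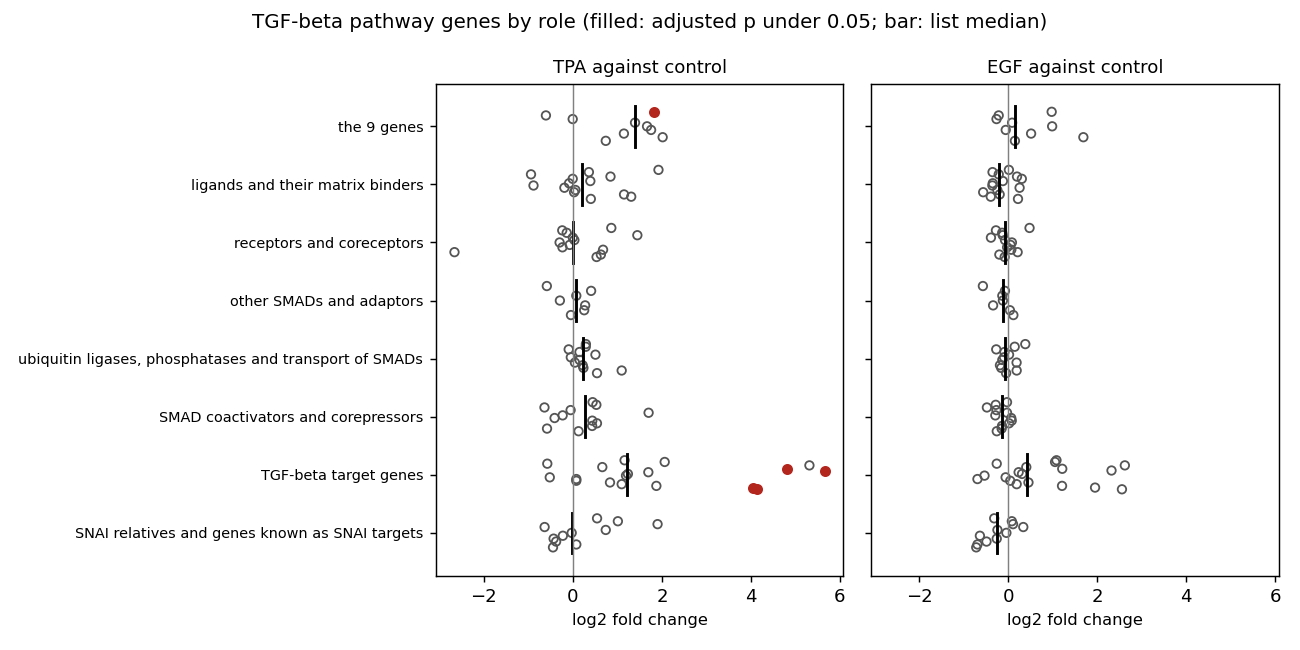
Log2 fold changes of the pathway genes by role, with filled points for an adjusted p under 0.05 and a bar at the list median. Under TPA against control the filled points are TGIF1 in the top row and JUNB, ID3, BHLHE40 and IL11 in the target list, which has a median of 1.22. Genes and lists were chosen with earlier results of these data known.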

How the data were processed

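The authors' deposited table holds raw read counts for 16 samples, with gene symbols as rows. Ribosomal RNA was removed and libraries kept strand, per the labels' protocols, which name 3 sequencers but not which sample ran on which. HOMER, hg19 and GRCh37 appear in the submitters' processing notes. Aligner and annotation: not given in the sources used here. Of 4 control columns, 2 were identical at 100% of genes and were counted as 1 sample, leaving 15 libraries of 7527026 to 130075914 counts.

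Tests used R 4.3.3 and edgeR 4.0.16. Genes were kept by filterByExpr (smallest count 10), libraries scaled by TMM, and all 6 groups fitted in 1 model by the quasi-likelihood test, with Benjamini-Hochberg adjustment over 18575 genes at 0.05. The library sets were read from the counts. Alternatives were DESeq2 1.42.0, its size factors, no filter, only the compared groups, both control copies, a set term, leaving out the 3 libraries that stand apart and leaving out each library. The scripts were tested on simulated data.

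The 9 genes and the lists were chosen with earlier results of these data known. All 9 are named with values for TPA and EGF against control, and in other comparisons where called or at an unadjusted p below 0.05. List genes are named where called, or for the lowest p-values, apart from 1 gene that is not reported here. Likeness was Pearson's r of log2 CPM (prior count 2).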

Additional observations from a re-analysis of the deposited data

Results flagged for a closer look

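SKI values for H89 given with a mitogen had opposite signs under TPA and EGF in both sets of libraries that hold all groups. Neither comparison passed edgeR's test for SKI (adjusted p = 0.714 and above 0.99), and each within-set value compares single libraries with no error. The log2 difference of TPA+H89 from TPA was -0.107 in the RNR set and -1.80 in the RNR-free set. The log2 difference of EGF+H89 from EGF was 0.53 and 0.09. The difference between the 2 mitogens in this effect was not tested. The larger negative value includes the second TPA library.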

How the results depend on the processing

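Of 454 alternative values for members, 384 kept their direction and their side of the threshold, 36 newly passed, 12 no longer passed and 22 changed sign. Members called for TPA against control numbered 1, and became 4 with DESeq2, 0 with only the compared groups in the model, 3 with both control copies, 3 with the set term, 2 without the 3 libraries that stand apart, and 0 to 4 when each library was left out. Over all genes the calls in this comparison moved too, from 77 to 527 with DESeq2, 0, 157, 233 and 46 in the same order, and 13 to 1187 over libraries left out, so a larger count of members came with more calls in all, apart from the set without the 3 libraries. For EGF against control they were 0 (of 5), and 1 with DESeq2 (of 57) and 1 without the 3 libraries (of 23), TGIF1 in both. For EGF+H89 against H89 they were 1 (of 5 genes), and 3 with DESeq2 (of 51), with only the compared groups (49), with the set term (50) and without the 3 libraries (45), but 0 to 0 when each library was left out. For TPA+H89 against H89 they were 1 (of 18), and 3 with DESeq2 (of 76), both copies (27), the set term (80) and without the 3 libraries (79), and 0 to 2 when each was left out. For TPA against EGF they were 0, and 1 with DESeq2 (of 294) and with the set term (of 62). They were also 0 when any EGF library was left out. For TPA+H89 against TPA and for the interaction of TPA and H89 they were 0. The TPA and TPA+H89 groups have 2 libraries each. Leaving 1 of these out leaves a single sample, so member counts from those fits are not given for these comparisons. Where 1 sample remained in a group the fit lent it the spread of the other groups. Without the 3 libraries, the sign turned for SMAD3 (0.18) and SKI (0.10) under EGF, for TGIF2 (0.39), SMAD3 (0.29) and SMAD6 (-0.10) under TPA, and for SMAD6 in TPA+H89 against TPA (0.19) and TPA against EGF (-0.32). Over libraries left out, EGF against control ran from -0.55 to 0.14 for TGIF2, -0.50 to 0.011 for SMAD3, -0.36 to 0.090 for SKI and -0.11 to 0.49 for SNAI2. TPA against control ran from -1.88 to 0.060 for TGIF2, -0.20 to 0.15 for SMAD3 and -0.17 to 2.10 for SMAD6. SMAD6 ran from -2.12 to 0.19 in TPA+H89 against TPA, -0.27 to 2.02 in TPA against EGF and -2.29 to 0.042 in the interaction. The cause was not tested. No paired analysis was possible because the labels give running sample names and no replicate numbers. The term for library set is the only blocking used, and it changed the calls given above. Each of the 2 sets that hold all groups joins separate runs of those names. In both, the TPA libraries come from a later run than the EGF libraries. In the RNR set this holds for the control library too, while the RNR-free control is the column listed in both runs. Values of TPA against EGF or control within a set can therefore cross runs. Those of TPA+H89 against H89, and of the interaction of TPA and H89, can cross runs too. In the RNR set the H89 library comes from the earlier run, and the H89 libraries of the RNR-free set come from both runs. The part of this was not tested. The lowest library held 40 to 342 counts of SNAI1, TGIF2, SMAD6, SKI, SNAI2 and SMAD7, which limits their precision.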
